A study of Mus musculus with 12 samples.

Results

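The genes described here are the Wnt ligands, the Frizzled receptors and 2 families of secreted antagonists, the sFRPs and the Dickkopfs, in mouse embryonic stem (ES) cells depleted of a DNA methylation factor or a NuRD subunit. They were chosen by symbol alone, as Wnt, Fzd, Sfrp or Dkk followed by a number and an optional a or b, which gave 37 genes. Of these, 19 are ligands, 10 are receptors and 8 are antagonists. All 37 had a probe on the array, and 35 of them were among the 29838 genes tested, with 17 ligands, 10 receptors and 8 antagonists.

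Wnt ligands are secreted, lipid-modified proteins that bind Frizzled receptors, which span the plasma membrane, together with co-receptors such as Lrp6. In the canonical pathway this binding keeps beta-catenin from being degraded, and beta-catenin then acts with Tcf/Lef factors on target genes, whereas other ligand and receptor pairs act on cell polarity and movement. Secreted Frizzled-related proteins (sFRPs) bind Wnts outside the cell and Dickkopf proteins act on the Lrp co-receptors. In mouse ES cells, canonical Wnt signalling is known for favouring self-renewal.

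The cells were the E14 line, grown on gelatin in serum and LIF with no feeder layer, and every group was transfected with esiRNAs (enzymatically made pools of short interfering RNAs) and collected after 48 hr. The control received esiRNAs to EGFP (EGFP KD), and the others received esiRNAs to Dnmt1, the maintenance DNA methyltransferase, to Tet1, which oxidises 5-methylcytosine, to Mbd3 or Mbd2, the alternative methyl-binding-domain subunits of the NuRD complex, or to Chd4, its remodelling ATPase. Each of the 6 groups had 2 arrays, each KD was compared with the same 2 EGFP KD arrays, and p-values measure only the spread between arrays. A transient KD lowers an mRNA without removing it, and the sample titles number the replicates without naming dishes or transfections.

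Levels are processed intensities relative to the 75th percentile of the same array, so a level of 0 on the log2 scale equals that percentile. Between 30305 and 37514 probes per array were well above background. There were 3 slides of 4 arrays. The first carried the replicate 1 arrays of the control and of Dnmt1, Mbd3 and Mbd2 KD, the second the other control array with Chd4 KD replicate 1 and both of Tet1 KD, and slide 3 the replicate 2 arrays of Dnmt1, Mbd3, Mbd2 and Chd4 KD without a control. Relative to the EGFP KD mean, the targeted mRNA stood at -3.07 and -2.85 on the log2 scale on the 2 Mbd3 KD arrays, at -1.54 and -1.01 for Chd4 and at -1.63 and -2.34 for Dnmt1. Tet1 went against its label on 1 array, standing at -0.017 for replicate 1 and -1.81 for replicate 2 of Tet1 KD, and at -1.78 for the replicate 1 array that carries the Mbd2 KD label. Mbd2, at a probe other than its brightest, stood at -0.23 and -1.77 for replicates 1 and 2 of Mbd2 KD and at -1.74 for the replicate 1 array that carries the Tet1 KD label, while its brightest probe stood at -0.074 and -0.068 under Mbd2 KD. On the 2 replicate 1 arrays, Tet1 and the dimmer Mbd2 probe thus stood the other way round from the labels. Whether the labels were exchanged was not tested. Both arrays were kept as labelled, so a result given for Tet1 KD or Mbd2 KD may mix the 2 KDs. The summed level of 10 ES cell markers lay between 153.8 and 201.8 times the 75th percentile on the 12 arrays, and all 10 were tested with 0 called in any KD.

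Most of the genes were measured. Of the 35 tested, 27 were well above background on all 12 arrays and none was saturated, while 7 were not well above background on some arrays (Wnt2b, Wnt3, Wnt7a, Fzd1, Dkk1, Dkk2 and Dkk4). Wnt2 was well above background on 0 arrays and Wnt3a on 1, so neither was tested. The Wnt5a spot was left out as an outlier for Mbd2 KD replicate 1, so that group has 1 value for it. Dkk2 sat at the lowest level used, -4.86, on all 12 arrays, so its differences of 0 carry no information.

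**Figure D1:**
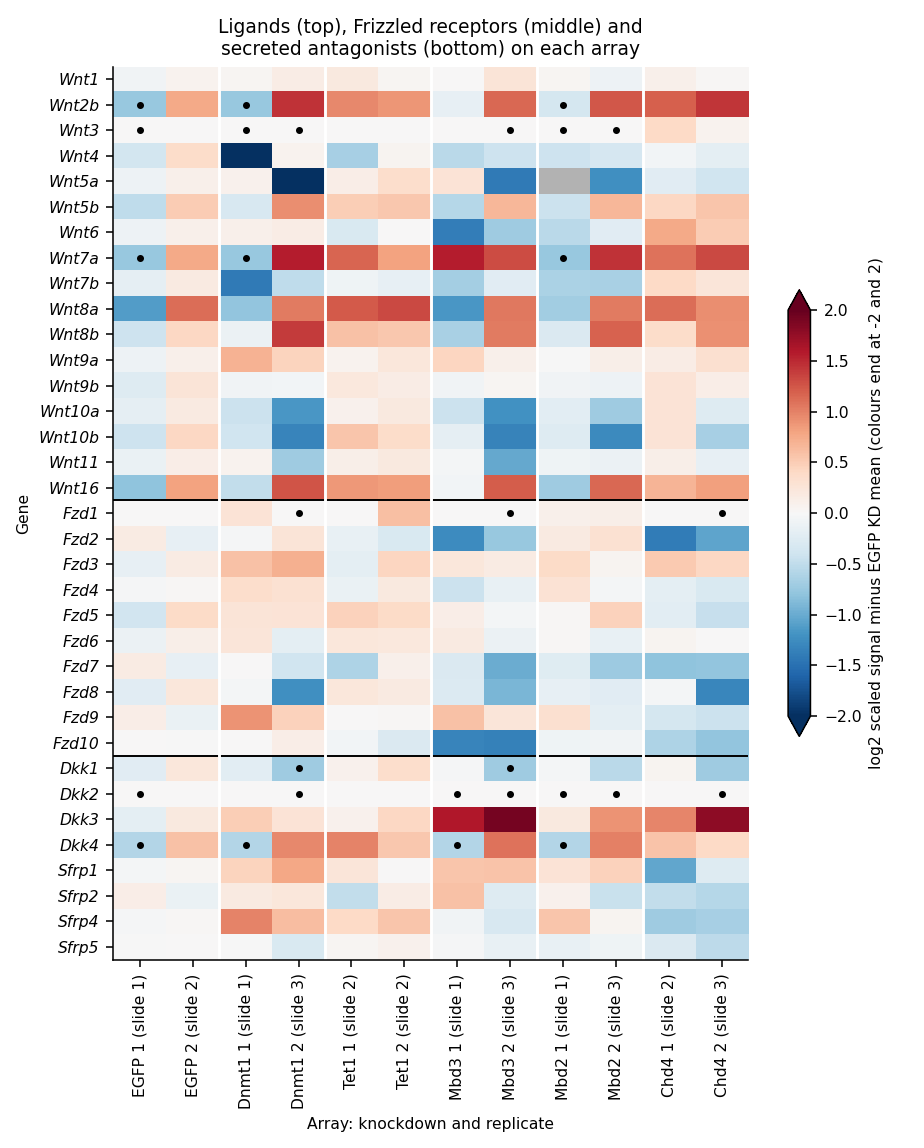
Each cell is a gene's log2 scaled signal on 1 array minus the mean of the 2 EGFP KD arrays, for the 35 genes tested (rows) on 12 arrays (columns). Black dots mark a spot not well above background and the grey cell a spot left out. Fzd10 and Fzd2 are blue on all 4 arrays of Mbd3 KD and Chd4 KD, Dkk3 is red there, and Wnt8a is blue on the 4 arrays of slide 1.

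Few of these genes passed the test. Receptors fell in 2 KDs, with Fzd10 lower in Mbd3 KD and in Chd4 KD and Fzd2 lower in Chd4 KD, and no ligand or antagonist was called against EGFP KD. In Mbd3 KD, 1 of 35 members was called at an adjusted p under 0.05 where 0.771% of all genes were, and in Chd4 KD 2 of 35 were called where 3.17% of all genes were. With Dnmt1, Tet1 or Mbd2 KD, limma called 0% of all genes and 0 of the 35 members. Dnmt1 itself, 3.96-fold lower in Dnmt1 KD, was not called (limma adjusted p = 0.372). Nor was Tet1 or Mbd2 called in its own KD as labelled, so these counts of 0 do not show that nothing changed. At an unadjusted p under 0.05 the members numbered 6 in Dnmt1 KD against 4.74% of all genes, 1 in Tet1 KD against 2.83%, 4 in Mbd3 KD against 9.67%, 0 in Mbd2 KD against 2.05% and 8 in Chd4 KD against 12.8%. Without the array labelled Tet1 KD replicate 1 or the array labelled Mbd2 KD replicate 1, the members called in Tet1 KD and Mbd2 KD stayed at 0.

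The class medians differed in sign in Chd4 KD, and that of the ligands depended on 1 control array. The median log2 fold change was -0.36 over the 10 receptors, of which 8 were lower than in EGFP KD, -0.37 over the 8 antagonists, of which 5 were lower, and 0.24 over the 17 ligands, of which 13 were higher, against 0.00 over all genes tested. The receptor and antagonist medians stayed below 0 in all 21 alternative settings, while the ligand median was -0.017 without EGFP KD replicate 1, 0.46 without EGFP KD replicate 2 and -0.09 with normexp background correction, and above 0 in the other settings. In Mbd3 KD the medians were -0.14 for receptors, 0.08 for antagonists and -0.01 for ligands, against -0.04 over all genes, and the receptor median was 0.0076 with slide as a block. Without EGFP KD replicate 1 the Mbd3 KD medians were -0.33, -0.051 and -0.46 in the same order, and without EGFP KD replicate 2 they were -0.13, 0.011 and 0.21. These medians count genes at the lowest level used as differences near 0.

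**Figure D2:**
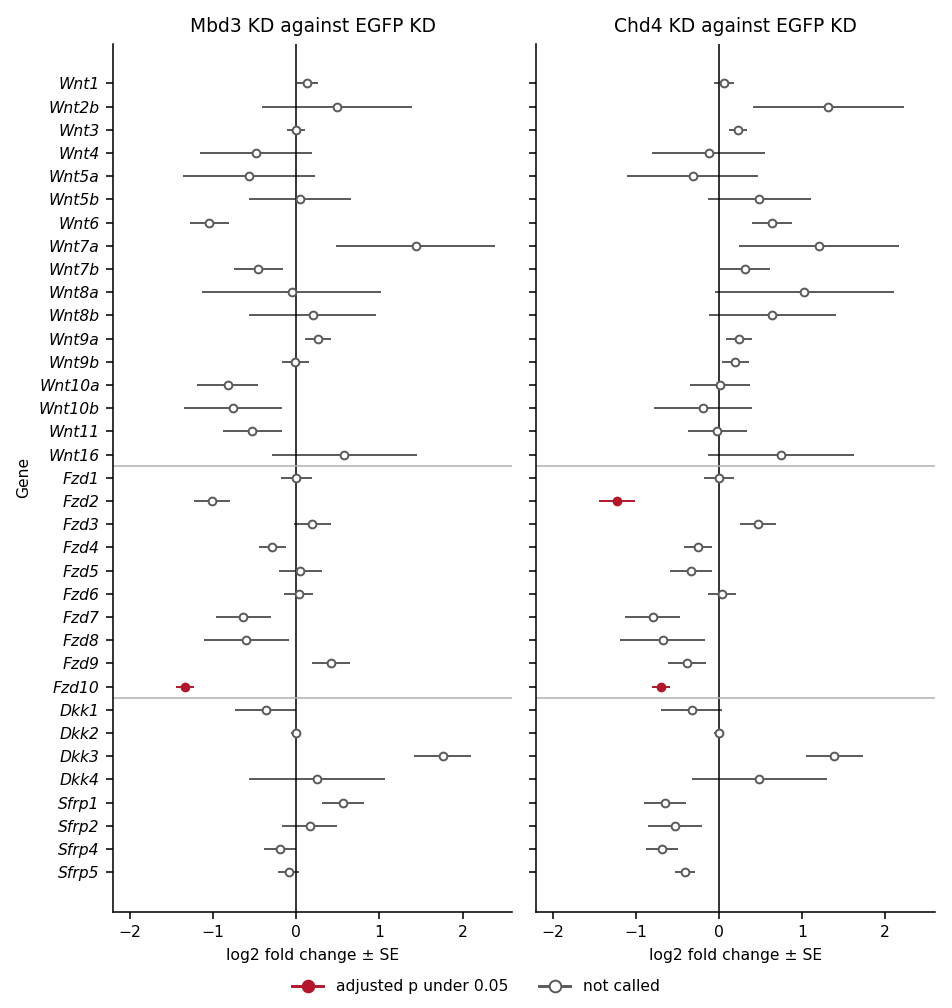
Points give the log2 fold change of each of the 35 genes in Mbd3 KD (left) and Chd4 KD (right) against EGFP KD, with bars of 1 standard error, and grey lines divide ligands, receptors and antagonists. Filled red points mark an adjusted p under 0.05, which are Fzd10 at -1.34 on the left and Fzd2 at -1.23 and Fzd10 at -0.70 on the right, and the widest bars belong to ligands such as Wnt8a and Wnt7a. The 2 panels share their control arrays.

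Among the ligands, Wnt6, which is known from epithelial and kidney development, was the member called, in the direct comparison of Chd4 KD with Mbd3 KD. Its level was -2.43 and -2.23 in EGFP KD, -3.71 and -3.04 under Mbd3 KD and -1.57 and -1.82 under Chd4 KD. It was -2.23 and -2.18 under Dnmt1 KD, -2.63 and -2.32 under Tet1 KD and -2.86 and -2.55 under Mbd2 KD. Both Mbd3 KD arrays were thus the lowest of the 12 and both Chd4 KD arrays the highest. Against EGFP KD the log2 fold changes were -1.04 in Mbd3 KD (SE 0.24, limma adjusted p = 0.143) and 0.64 in Chd4 KD (SE 0.24, limma adjusted p = 0.299), and neither was called.

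Compared directly, Wnt6 was 3.21-fold higher in Chd4 KD than in Mbd3 KD, with a log2 difference of 1.68 (SE 0.24, limma adjusted p = 0.0242). This comparison called 2 of 35 members, the other being Fzd10, where 1.46% of all genes were called, and 7 of 35 had an unadjusted p under 0.05 where 10% of all genes did. The Wnt6 difference was 1.22 on slide 3, the slide that held 1 array of each, and 1.497 with slide as a block (limma adjusted p = 0.0596), which ended the call. The call also ended without either array of EGFP KD, Dnmt1 KD, Tet1 KD or Chd4 KD and without Mbd3 KD replicate 1, where the difference lay between 1.35 and 1.81 with adjusted p between 0.0502 and 0.135.

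The 250 bases before the start of Wnt6 are shown because Wnt6 was the ligand called, between Chd4 KD and Mbd3 KD. CpGs are marked because the study concerns CpG methylation, and a part of methylation in the Wnt6 difference was not tested. The RefSeq sequence (GRCm38.p6, chr1:74771642-74771891, plus strand) is printed 5′ to 3′ with each CpG in capitals, and it holds 28 CpGs.
Wnt6: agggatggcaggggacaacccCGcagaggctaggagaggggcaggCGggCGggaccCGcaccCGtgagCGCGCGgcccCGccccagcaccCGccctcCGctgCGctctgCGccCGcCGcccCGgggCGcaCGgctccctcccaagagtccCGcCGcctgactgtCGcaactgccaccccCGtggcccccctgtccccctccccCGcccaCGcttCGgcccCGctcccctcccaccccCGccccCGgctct

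Of the other ligands, Wnt7b and Wnt9a had an unadjusted p under 0.05 in Dnmt1 KD. Wnt7b was at -3.35 and -2.44 under Dnmt1 KD and at -2.11 and -1.75 in EGFP KD, a log2 fold change of -0.97 (SE 0.30, limma adjusted p = 0.771). On the other arrays Wnt7b was at -2.01 and -2.09 under Tet1 KD, -2.61 and -2.15 under Mbd3 KD, -2.56 and -2.58 under Mbd2 KD and -1.54 and -1.69 under Chd4 KD. The 2 Chd4 KD arrays were thus the highest of the 12 and a Dnmt1 KD array the lowest. Wnt9a was at -3.37 and -3.63 under Dnmt1 KD and at -4.16 and -3.97 in EGFP KD, a log2 fold change of 0.57 (SE 0.16, limma adjusted p = 0.628), and its other arrays lay between -4.08 and -3.64. With normexp background correction the sign for Wnt9a turned to -0.63, where the median of all genes in that comparison was -0.38.

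At their brightest probes, several ligands followed the slide rather than the KD. Wnt2b, Wnt5b, Wnt8a, Wnt8b, Wnt16 and the antagonist Dkk4 were lower on all 4 arrays of slide 1 than on any other array, which is 6 of the 34 members with a value on every array, where 9.36% of all genes were so. Wnt8a, a ligand of early mesoderm, lay between -3.88 and -3.41 on slide 1 and between -1.79 and -1.40 on the other 8 arrays. Wnt16 lay between -3.63 and -2.88 on slide 1 and between -2.15 and -1.57 elsewhere, and Wnt5b between -1.53 and -1.27 and between -0.54 and -0.02. The other Wnt16 probe was at -4.64 on EGFP KD replicate 1 (slide 1) and at -4.86 on Dnmt1 KD replicate 2 (slide 3). The other Wnt8b probe was at -4.01 on EGFP KD replicate 1 and at -4.24 on Mbd2 KD replicate 2 (slide 3). These other probes thus did not separate slide 1, and that of Wnt8b was not higher on all of slide 3. Dkk4 sat at -4.86 on all 4 arrays of slide 1 and was not well above background there. Slide 1 held 1 of the 2 control arrays, so in these genes the EGFP KD arrays fell on different sides of that gap. On slide 3, Wnt10b and Dkk1 were lower on all 4 arrays than elsewhere, 2 of 34 members where 9.04% of all genes were so, and Wnt5b and Wnt8b were higher, 2 of 34 where 6.25% were. Slide 2, which held both Tet1 KD arrays, had 6 of 34 members higher on all 4 arrays (Wnt8a, Wnt9b, Wnt10a, Wnt10b, Wnt11 and Dkk1) where 8.69% of all genes were so. No member was higher on all of slide 1 or lower on all of slide 2, where 3.34% and 0.831% of all genes were. On slide 3 Wnt10b, a canonical ligand, lay between -1.80 and -1.13 and elsewhere between -0.87 and 0.10. All of the members just named were uncalled in every comparison.

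**Figure D3:**
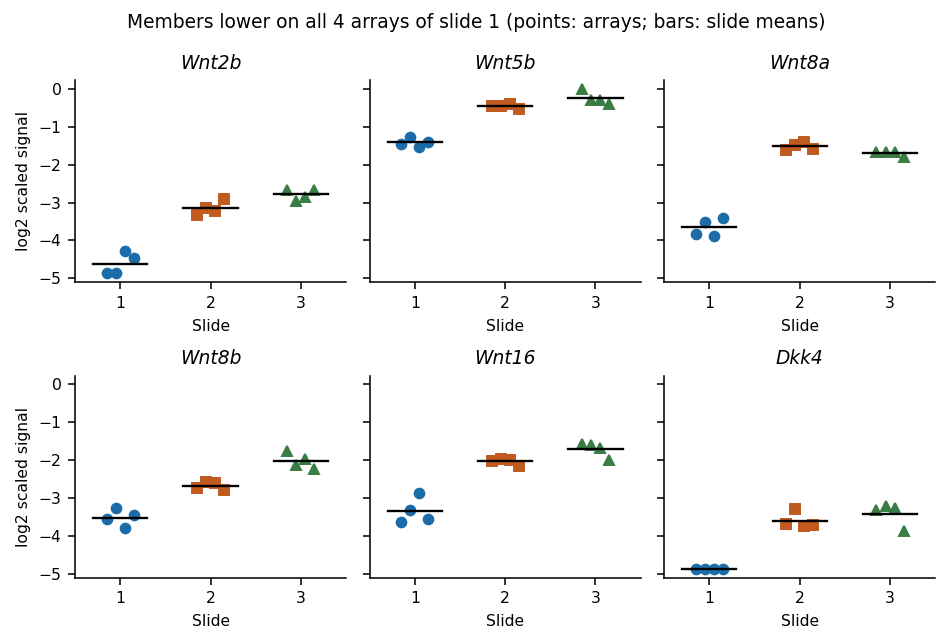
The log2 scaled signal of 6 genes, each at its brightest probe, is plotted by slide, with 1 point for each of the 4 arrays on a slide and a bar at the slide's mean. The 4 arrays of slide 1, which come from 4 groups, lie below all 8 arrays of slides 2 and 3 in each panel.

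Among the members, a receptor had the lowest p-value in Mbd3 KD and in Chd4 KD, Fzd10 in both. Fzd10, a Frizzled receptor that can act through beta-catenin, was at 0.39 and 0.37 in EGFP KD and at -0.94 and -0.97 under Mbd3 KD. In Chd4 KD it was at -0.23 and -0.40. The remaining arrays were at 0.38 and 0.52 under Dnmt1 KD, 0.33 and 0.10 under Tet1 KD and 0.29 and 0.31 under Mbd2 KD. The Mbd3 KD arrays were the lowest, the Chd4 KD arrays came next, and no array of another group reached as low as either.

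Fzd10 was 2.53-fold lower in Mbd3 KD than in EGFP KD, with a log2 fold change of -1.34 (SE 0.11, limma adjusted p = 0.00758), and 1.62-fold lower in Chd4 KD, with -0.70 (SE 0.11, limma adjusted p = 0.0183). Within slide 1 Mbd3 KD replicate 1 differed from EGFP KD replicate 1 by -1.34, and within slide 2 Chd4 KD replicate 1 differed from EGFP KD replicate 2 by -0.60. With slide as a block the values were -1.30 (limma adjusted p = 0.0536) and -0.70 (limma adjusted p = 0.043), so the Mbd3 KD call was lost. It was also lost without EGFP KD replicate 1, at -1.33 with adjusted p = 0.0531, and without Mbd3 KD replicate 1, at -1.35 with adjusted p = 0.0527. The Chd4 KD call was lost without EGFP KD replicate 1, EGFP KD replicate 2 or Chd4 KD replicate 2, at values from -0.71 to -0.61 and adjusted p from 0.077 to 0.0938.

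The direct comparisons set Fzd10 apart between the KDs. It was 2.39-fold lower in Mbd3 KD than in Mbd2 KD as labelled, with a log2 difference of -1.26 (limma adjusted p = 0.00895), the 1 member called of 35 where 0.486% of all genes were called. At an unadjusted p under 0.05 that comparison held 6 of 35 members, where it held 6.88% of all genes. The difference was -1.24 on slide 1 and -1.28 on slide 3, the call held without either array labelled Mbd2 KD, and the difference was -1.27 without Mbd3 KD replicate 1 (limma adjusted p = 0.0659), which ended the call. Between Chd4 KD and Mbd3 KD, Fzd10 differed by 0.64 (SE 0.11, limma adjusted p = 0.0436), and by 0.56 on slide 3. It passed the test in 4 of 21 alternatives and failed in 17, including slide as a block, at 0.60 with adjusted p = 0.118, and the omission of any array other than those labelled Tet1 KD, at values from 0.55 to 0.73 and adjusted p from 0.0544 to 0.199.

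The same stretch before the start of Fzd10 is printed because it was the member called in the most comparisons. The RefSeq sequence (GRCm38.p6, chr5:128600856-128601105, plus strand) holds 37 CpGs, in capitals, and 76.4% of its bases are G or C.
Fzd10: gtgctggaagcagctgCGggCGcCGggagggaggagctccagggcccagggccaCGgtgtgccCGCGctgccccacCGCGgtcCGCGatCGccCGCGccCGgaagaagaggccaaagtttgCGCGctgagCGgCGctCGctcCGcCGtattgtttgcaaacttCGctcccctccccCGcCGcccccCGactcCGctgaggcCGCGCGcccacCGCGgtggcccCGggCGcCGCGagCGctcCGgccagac

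Fzd2, a receptor of Wnt5a and other ligands, was at -0.69 and -1.01 in EGFP KD, -2.25 and -1.91 under Chd4 KD and -2.11 and -1.61 under Mbd3 KD. It was at -0.87 and -0.59 under Dnmt1 KD, -1.003 and -1.15 under Tet1 KD and -0.67 and -0.54 under Mbd2 KD. All 4 arrays of Chd4 KD and Mbd3 KD lay below the other 8. The log2 fold change was -1.23 in Chd4 KD (SE 0.21, limma adjusted p = 0.0298), or 2.34-fold lower, and -1.01 in Mbd3 KD (SE 0.21, limma adjusted p = 0.117), which was not called. The 2 KDs differed from each other by -0.22 (SE 0.21, limma adjusted p = 0.922). Within a slide the values were -1.24 for Chd4 KD and -1.42 for Mbd3 KD, and with slide as a block they were -1.36 (limma adjusted p = 0.013) and -1.24 (limma adjusted p = 0.0567). The Chd4 KD call was lost without either array of EGFP KD, Tet1 KD, Mbd2 KD or Chd4 KD, at values from -1.40 to -1.06 and adjusted p from 0.0574 to 0.17. A second Fzd2 probe was well above background on 0 arrays.

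**Figure D4:**
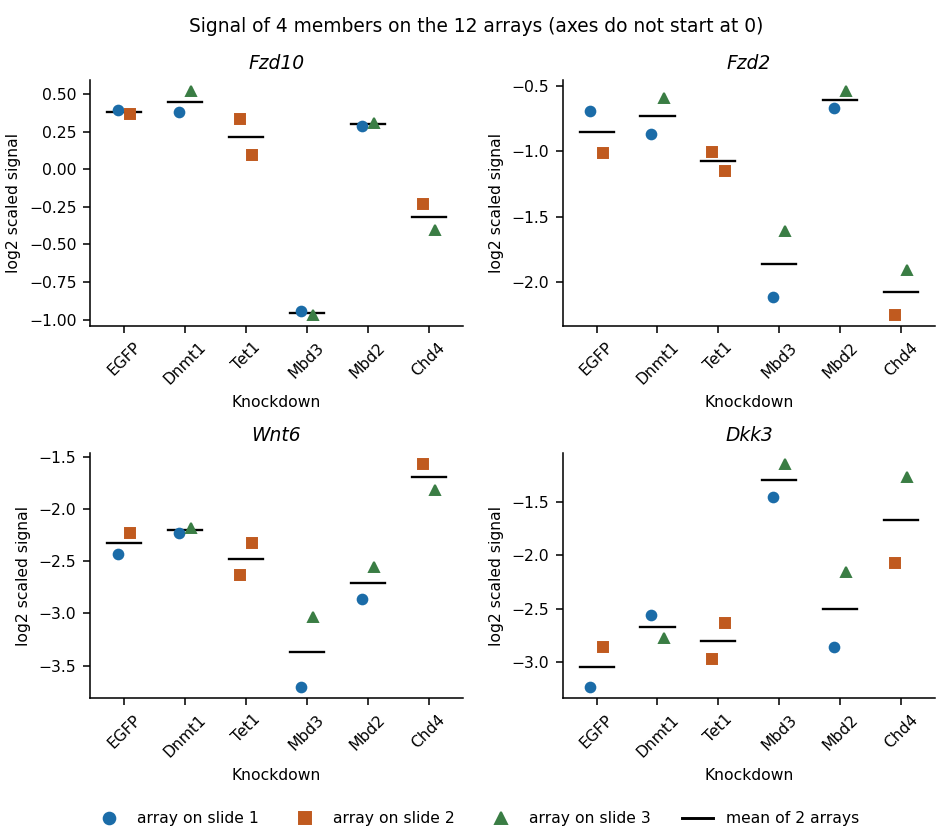
Each panel plots the log2 scaled signal of 1 gene on the 12 arrays by KD, with the shape and colour of a point giving its slide and a bar the mean of 2 arrays. Fzd10 and Fzd2 are lowest in Mbd3 KD and Chd4 KD, Wnt6 is lowest in Mbd3 KD and highest in Chd4 KD, and Dkk3 is highest on Mbd3 KD and Chd4 KD arrays.

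Fzd7, a receptor with a known role in self-renewal of pluripotent cells, was at -1.12 on both Chd4 KD arrays and at -0.17 and -0.48 in EGFP KD, a log2 fold change of -0.80 (SE 0.33, limma adjusted p = 0.385). Its other arrays ranged from -1.31, in Mbd3 KD, to -0.22, in Tet1 KD, so they overlapped Chd4 KD. The other Fzd7 probe, well above background on all 12 arrays, gave -0.18 in Chd4 KD. Both Fzd5 probes were likewise well above background on all 12 arrays, and they gave -0.34 and -0.77 under Chd4 KD.

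Both Fzd9 and Fzd3 were among the members with an unadjusted p under 0.05 in Dnmt1 KD. Fzd9 was at 0.47 and 0.04 under Dnmt1 KD and at -0.30 and -0.56 in EGFP KD, a log2 fold change of 0.68 (SE 0.22, limma adjusted p = 0.842). It was at -0.42 and -0.41 under Tet1 KD, 0.16 and -0.18 under Mbd3 KD, -0.10 and -0.63 under Mbd2 KD and -0.78 and -0.85 under Chd4 KD, where both arrays were the lowest of the 12. Fzd3, a receptor of the planar polarity pathway in axon guidance, was at -1.97 and -1.83 under Dnmt1 KD and at -2.72 and -2.38 in EGFP KD, and in Dnmt1 KD it had a log2 fold change of 0.65 (SE 0.22, limma adjusted p = 0.877), and -0.081 with normexp background correction. The arrays of the other KDs lay between -2.73 and -2.02 for Fzd3, below both Dnmt1 KD arrays.

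The antagonist with the largest difference against EGFP KD, in Mbd3 KD and in Chd4 KD, was Dkk3, a divergent Dickkopf family member. Dkk3 was at -3.24 and -2.86 in EGFP KD, -1.45 and -1.14 under Mbd3 KD and -2.07 and -1.26 under Chd4 KD. It was at -2.56 and -2.78 under Dnmt1 KD, -2.97 and -2.63 under Tet1 KD and -2.86 and -2.15 under Mbd2 KD. The 4 arrays of Mbd3 KD and Chd4 KD were above the other 8. The log2 fold changes were 1.76 in Mbd3 KD (SE 0.34, limma adjusted p = 0.0883) and 1.39 in Chd4 KD (SE 0.34, limma adjusted p = 0.0951), 3.39-fold and 2.62-fold, and neither passed the test. With the replicate number as a block both passed, with limma adjusted p of 0.0429 and 0.0346. Within a slide the differences were 1.79 and 0.79, and with slide as a block 1.55 (limma adjusted p = 0.156) and 1.19 (limma adjusted p = 0.134). Over the 21 alternative settings the Dkk3 log2 fold change ranged from 0.56 to 1.95 in Mbd3 KD and from 0.35 to 1.79 in Chd4 KD.

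Sfrp1, Sfrp4 and Sfrp5 lay lower in Chd4 KD at an unadjusted p under 0.05, the kind of p-value by which they came to be named. The other sFRP tested, Sfrp2, had a log2 fold change of -0.53 in Chd4 KD (SE 0.33, limma adjusted p = 0.663). Sfrp4 was at -1.57 and -1.52 under Chd4 KD and at -0.89 and -0.84 in EGFP KD, with 0.14 and -0.25 under Dnmt1 KD and -0.47 and -0.30 under Tet1 KD. It was at -0.92 and -1.19 under Mbd3 KD and at -0.31 and -0.80 under Mbd2 KD. Its Chd4 KD arrays were the lowest of the 12, while those of Dnmt1 KD, Tet1 KD and Mbd2 KD lay above both controls. The log2 fold changes were -0.69 in Chd4 KD (limma adjusted p = 0.156), 0.81 in Dnmt1 KD (limma adjusted p = 0.522) and 0.48 in Tet1 KD (limma adjusted p = 1), each with SE 0.20. Sfrp4 was the member with an unadjusted p under 0.05 in Tet1 KD, and its difference there was 0.56 without the array labelled Tet1 KD replicate 1.

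Sfrp1 was at -2.86 and -2.08 under Chd4 KD, -1.85 and -1.78 in EGFP KD and -1.37 and -1.04 under Dnmt1 KD. On the remaining arrays it lay between -1.81 and -1.25, so both Chd4 KD arrays were below the other 10. The log2 fold changes were -0.65 in Chd4 KD (SE 0.25, limma adjusted p = 0.316) and 0.61 in Dnmt1 KD (SE 0.25, limma adjusted p = 0.943). Sfrp5 was at -0.75 and -0.98 under Chd4 KD and at -0.47 and -0.45 in EGFP KD, a log2 fold change of -0.41 (SE 0.12, limma adjusted p = 0.182), and its other arrays lay between -0.76 and -0.37, so 1 Dnmt1 KD array overlapped Chd4 KD. None of the sFRPs passed the test.

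Markers of some other cell types differed in the same KDs. The summed level of the 8 trophectoderm markers tested of 8 listed was between 6.54 and 7.30 in EGFP KD, between 11.2 and 11.3 under Mbd3 KD and between 13.8 and 14.6 under Chd4 KD. For 7 of 8 primed epiblast and early mesoderm markers it was between 4.36 and 4.37, between 5.56 and 5.86 and between 9.42 and 10.9, and for 5 of 6 fibroblast or feeder markers between 4.24 and 4.82, between 8.90 and 9.16 and between 8.99 and 11.5, in the same order. With Dnmt1, Tet1 or Mbd2 KD these 3 sums lay between 6.24 and 7.87, between 3.66 and 4.51 and between 4.63 and 6.82. The fibroblast or feeder sum was also above EGFP KD in Dnmt1 KD (6.28 to 6.82) and in Tet1 KD as labelled (5.35 to 5.54). The median log2 fold changes of these 3 lists were 0.10, 0.012 and -0.23 in Mbd3 KD and 0.41, 0.40 and -0.011 in Chd4 KD, so the fibroblast or feeder sum was higher while the median of that list was below 0, and its Thy1, called in both KDs, was 2.42-fold and 2.68-fold higher. Gsc and Postn failed the filter on dim probes, and Gata3 sat at the lowest level used on both Mbd3 KD arrays. The markers called were Tfap2c and Thy1 (higher) and Gata3 (lower) in Mbd3 KD, and Col1a1, Otx2, Thy1, Krt18 and Tfap2c (higher) in Chd4 KD. None of the 8 primitive endoderm or 6 neural markers was called in a KD. The primitive endoderm sum was 1.18 to 1.91 in EGFP KD, 1.45 to 1.65 under Mbd3 KD and 1.53 to 1.94 under Chd4 KD. The neural sum was 4.16 to 4.24, 4.10 to 5.26 and 3.64 to 4.58 in the same order. The ES cell sum lay between 160.4 and 200.6 under Mbd3 KD and between 153.8 and 184.9 under Chd4 KD, against 167.5 to 191.3 in EGFP KD. The part of these cell type markers in the receptor and antagonist differences was not tested, and fewer cells of a type cannot be told apart from less RNA per cell.

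Of 74 other genes of the pathway, 72 were tested, and those that passed the test in a KD were all lower than in EGFP KD. The list of these genes was drawn up with earlier results of these data known, which limits a comparison of its counts with all genes. In Mbd3 KD the call was Sp5, 1 of 72 where 0.771% of all genes were called, and in Chd4 KD the calls were Dact1, Sp5, Porcn and Dvl1, 4 of 72 where 3.17% were. At an unadjusted p under 0.05 there were 13 of 72 in Mbd3 KD and 14 of 72 in Chd4 KD, where 9.67% and 12.8% of all genes were. No pathway gene was called higher in any KD, and limma called 0 of 72 with Dnmt1, Tet1 or Mbd2 KD, where 3, 1 and 2 had an unadjusted p under 0.05 and 4.74%, 2.83% and 2.05% of all genes did. By role, the calls in Chd4 KD fell on 2 of 20 cytoplasmic genes, 1 of 5 secretion genes and 1 of 11 target genes, and on 0 of 8 co-receptors, 0 of 5 other secreted antagonists, 0 of 9 R-spondin axis genes and 0 of 14 nuclear genes. The pathway median was 0.03 in Mbd3 KD and 0.08 in Chd4 KD.

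Sp5, a transcription factor and direct target of beta-catenin, was at -1.24 and -1.37 in EGFP KD, -2.88 and -2.78 under Mbd3 KD and -2.26 and -2.31 under Chd4 KD, and its arrays in the other KDs lay between -1.71 and -1.18. The log2 fold changes were -1.53 in Mbd3 KD (SE 0.13, limma adjusted p = 0.00956) and -0.98 in Chd4 KD (SE 0.13, limma adjusted p = 0.00943). In both KDs Sp5 lay below all 8 arrays of the other groups. The Sp5 call was lost without EGFP KD replicate 1 or Mbd3 KD replicate 1 in Mbd3 KD, at -1.47 to -1.46 with adjusted p of 0.0582 to 0.0631, and without EGFP KD replicate 1 or either Chd4 KD array in Chd4 KD, at -1.01 to -0.92 with adjusted p of 0.0529 to 0.0649.

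Dact1, a Dishevelled-binding modulator of the pathway, was at -3.59 and -3.74 under Chd4 KD and between -2.78 and -2.33 on the other 10 arrays, with a log2 fold change of -1.16 (SE 0.14, limma adjusted p = 0.00724). Dvl1, a Dishevelled protein that relays the signal from Frizzled, was at -0.58 and -0.62 under Chd4 KD, -0.60 and -0.29 under Mbd3 KD and 0.25 and 0.45 in EGFP KD. Dvl1 had a log2 fold change of -0.95 in Chd4 KD (SE 0.17, limma adjusted p = 0.0333) and -0.79 in Mbd3 KD (SE 0.17, limma adjusted p = 0.119), and the latter was not called. Porcn, the acyltransferase that lipid-modifies Wnts for secretion, was at 0.23 and 0.25 under Chd4 KD, 0.72 and 0.70 in EGFP KD and 0.91 and 0.98 under Mbd3 KD. Porcn changed by -0.47 in Chd4 KD (SE 0.08, limma adjusted p = 0.0332) and differed by -0.71 between Chd4 KD and Mbd3 KD (limma adjusted p = 0.0126). The Porcn call in Chd4 KD was lost with slide as a block (limma adjusted p = 0.0504), quantile normalization, normexp, the all-array filter, the trended prior and only the 4 arrays compared. The mean of all Dact1 probes gave -0.63 with the call lost. Leaving out 1 array ended the call for Dact1 in 2 cases (EGFP KD replicate 1 or Chd4 KD replicate 2), for Dvl1 in 8 (either array of EGFP KD, Tet1 KD, Mbd2 KD or Chd4 KD) and for Porcn in 6 (either array of EGFP KD, Mbd3 KD or Chd4 KD), with values of -1.15 to -1.09, -1.05 to -0.85 and -0.48 to -0.46.

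**Figure D5:**
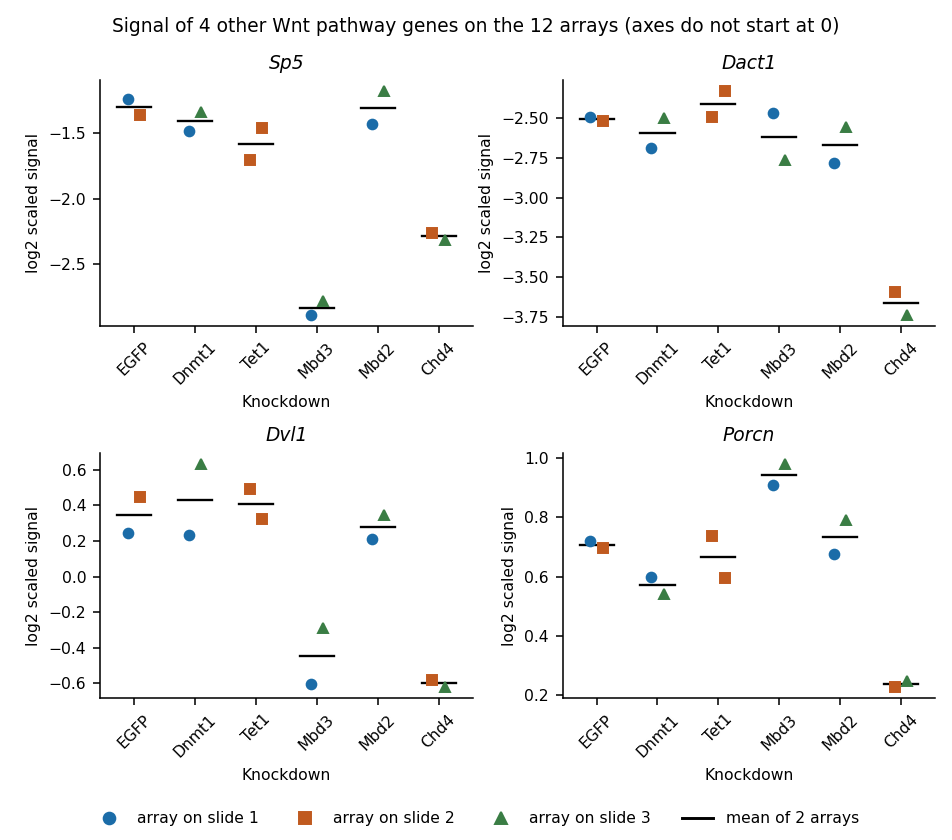
The log2 scaled signal of the 4 pathway genes called in a KD is plotted for the 12 arrays, with point shape and colour by slide and bars at the mean of 2 arrays. Sp5 and Dvl1 are low in Mbd3 KD and Chd4 KD, Dact1 in Chd4 KD, and Porcn is lowest in Chd4 KD and highest in Mbd3 KD.

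Most of the members' promoters with a sequence were richer in CpGs than the median promoter, a property the choice by symbol did not use. RefSeq windows (GRCm38.p6) of 250 bases before to 50 bases after a start were matched by symbol for 25 of the 37 genes, in 28 windows. They held a median of 26.5 CpGs per 300 bases, against 7 over 32851 windows of all genes, with a range of 4 to 58. The ratio of observed to expected CpGs had a median of 0.75, against 0.38 for all windows. Of members called in a comparison, Fzd10 had 45 CpGs and a ratio of 0.99 and Wnt6 31 and 0.74. Among members uncalled in the main fit, Fzd9 had 53 and 1.18, Wnt9a 58 and 1.12 and Sfrp5 15 and 0.62. Also uncalled were Fzd4 with 32 and 0.81, Wnt4 with 51 and 0.98 and Dkk1 with 9 and 0.33. Of the 28 windows, 3 held no more CpGs than the median of all windows, 2 of Wnt5b and 1 of Wnt8b. The letters CTTTGAT, those of the Tcf/Lef motif, searched on both strands, occurred in 2 of the 28 windows, 1 each of Wnt11 and Wnt5b, and in 3.73% of all windows, and they were in neither the Fzd10 nor the Wnt6 window. Methylation was not measured on these arrays.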

How the data were processed

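The authors hybridised RNA of the 12 samples to one-colour Agilent arrays, quantified with Feature Extraction 10.7.1.1 per the submitters' processing notes. The deposited files hold spot intensity after local background subtraction, with no scaling across arrays. A deposited table of log2 values against the control was not used.

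Control spots (1377) and outlier spots were left out. Processed intensity was divided by each array's 75th percentile (1783.5 to 2445.1), floored at log2 -4.86 and averaged over spots of a probe. A probe had to exceed background clearly on both arrays of at least 1 group, and the brightest probe stood for a gene. RefSeq accessions (GRCm38.p6) named 71.4% of spots. All 6 groups were fitted with limma 3.58.1 in R 4.3.3, with Benjamini-Hochberg adjustment over 29838 genes and calls under 0.05. The number of arrays limits the precision. The steps were tested on simulated data that held no slide or replicate effect, so this test does not cover such effects.

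Members, lists and named genes were chosen with earlier results of these data known. Values by array are given for members called, or with an unadjusted p under 0.05 in a KD and both KD arrays on 1 side of both controls. Alternatives were quantile normalization, normexp (offset 50, median signal), other filters, probe means, replicate or slide blocks, only the 4 arrays compared, a trended prior and omission of each array.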

Additional observations from a re-analysis of the deposited data

Results flagged for a closer look

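Among the members, 3 differences passed the test in a direct comparison of 2 KDs. Fzd10 was higher in Chd4 KD than in Mbd3 KD by 0.64 on the log2 scale, and Wnt6 was higher in Chd4 KD than in Mbd3 KD by 1.68. Fzd10 differed by -1.26 between Mbd3 KD and Mbd2 KD as labelled. For Wnt6 the arrays of Chd4 KD lay above and those of Mbd3 KD below both EGFP KD arrays. For Fzd10 the arrays of Mbd3 KD and Chd4 KD were below EGFP KD, and both Mbd3 KD arrays were below both Chd4 KD arrays.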

How the results depend on the processing

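No direction of a called member turned in any of the 21 settings, but every call was lost in at least 3 of them. Members called in Mbd3 KD (main count 1) numbered 0 with normexp, slide as a block or only the 4 arrays, and 2 with the replicate block. In Chd4 KD (main count 2) they numbered 1 with normexp or only probes well above background on all arrays and 0 with the 4 arrays. For Chd4 KD against Mbd3 KD (main count 2) they numbered 1 with quantile normalization, the all-array filter, the replicate block, slide as a block (Fzd9) or the trended prior, and 0 with normexp or the 4 arrays. For Mbd3 KD against Mbd2 KD (main count 1) they numbered 0 with normexp or the 4 arrays and 2 with slide as a block (Fzd10 and Fzd2). Pathway genes called numbered 0 in Mbd3 KD and 0 in Chd4 KD with normexp or the 4 arrays, and 2 in Mbd3 KD with the replicate block. Leaving out 1 array gave 0 to 1 members in Mbd3 KD, 0 to 2 in Chd4 KD, 0 to 2 between Chd4 KD and Mbd3 KD and 0 to 1 between Mbd3 KD and Mbd2 KD, and 0 to 1 and 0 to 4 pathway genes in Mbd3 KD and Chd4 KD. An omission leaves a group with 1 array, assumed to vary like the others. The replicate block added the calls of Dkk3 in Mbd3 KD (adjusted p = 0.0429) and Chd4 KD (adjusted p = 0.0346). Normexp moved the median of all genes to between -0.40 and -0.26 in the 5 KDs and reversed Fzd3 (-0.081) and Wnt9a (-0.63) in Dnmt1 KD. All genes called numbered 230 in Mbd3 KD and 946 in Chd4 KD, 2 and 65 with normexp, 57 and 1291 with slide as a block, 34 and 376 without EGFP KD replicate 1, 102 and 544 without EGFP KD replicate 2, and 34 and 719 without Mbd3 KD replicate 1. Over all omissions they lay between 34 and 162 and between 376 and 900. Without Chd4 KD replicate 2, Wnt3 was the member called in Chd4 KD, on 1 array close to the lowest level used. Wnt3 sat at that level, -4.86, on 10 arrays, both EGFP KD arrays among them. It stood at -4.47 on Chd4 KD replicate 1 and at -4.79 on Chd4 KD replicate 2. The Wnt3 call thus compares a dim spot with controls that show no spread, and no conclusion is drawn from it. Same-numbered arrays deviated together in part: their deviations from group means correlated at over 0.1 in 10 of 15 pairs (-0.042 to 0.767), and as this was not every pair the number was not taken to pair the samples. The causes were not tested.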
